A study of Schizosaccharomyces pombe with 6 samples.

Results

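The genes described here encode proteins of the mitochondrial ribosome of fission yeast, *Schizosaccharomyces pombe*. They were chosen by name, as every probe set annotated to exactly 1 *S. pombe* gene whose symbol is mrpl, mrps, mrp or rsm followed by a number. The rule found 47 genes, each with 1 probe set, among 4965 probe sets tested. One of them, rsm1, is known in fission yeast as a factor for the export of mRNA from the nucleus and not as a ribosomal protein, so it is given apart. The other 46 genes are 27 of the large and 19 of the small subunit. RefSeq lists 59 protein-coding genes whose symbol fits the rule, and 12 of them had no probe set paired with them here and were not analysed.

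Expression was measured in wild type 972 h- cells that were treated with 50 µM NaHS, a donor of hydrogen sulfide, for 30 min at 30°C, and in untreated wild type 972 h- cells. Both were grown in liquid medium to an OD600 of 0.5. There were 3 cultures in each group, and each was hybridised to its own Affymetrix Yeast Genome array. The question was which genes respond to hydrogen sulfide, a gas that inhibits respiration at cytochrome c oxidase. The values are on a log2 scale, where a difference of 1 means a doubling. Of the 10928 probe sets on the array, 2601 are paired with *S. cerevisiae* genes in the platform's annotation. They served as background, because no RNA of that species was used. The 99th percentile of their mean log2 signals was 3.67, and all 46 genes lay above it, with the lowest mean at 6.93 and the highest at 11.19. No value of these genes was blank. The arrays of replicate 1 stood apart from the others in both groups, as described below.

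The mitochondrial ribosome translates the few mRNAs of the mitochondrial genome, most of which encode membrane subunits of the respiratory complexes. Its ribosomal RNAs are transcribed in the mitochondrion, but nearly all of its proteins are encoded in the nucleus, made in the cytoplasm and imported. The large subunit joins amino acids and passes the growing chain through an exit tunnel, and the small subunit reads the mRNA. Many of the proteins have a counterpart in bacteria, and others are found only in mitochondria.

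Most mitochondrial ribosomal protein genes did not pass the test for a difference after NaHS treatment, and those that passed were lower. In limma, with the Benjamini-Hochberg adjustment over all tested probe sets and a threshold of 0.05, 2 of the 46 genes fell and 0 rose. At an unadjusted p below 0.05 there were 6, all lower. Of all 4965 probe sets 1115 passed this limit, and 564 of those were lower. The genes that fell were mrpl8 of the large subunit, which was 1.52-fold lower, and rsm23 of the small subunit, which was 1.25-fold lower. Of all 4965 probe sets 3.67% were called lower and 3.97% higher, 7.63% in all, so the share of these genes that were called lower, 4.35%, was close to the background. When the replicate number was added to the test as a block, 12 of the 46 fell (26.1%) and 1 rose. Of all probe sets 16.4% were called lower and 16.3% higher with the block. Values below 0 were found for the log2 fold change of 29 of the 46 genes, or 63.0%, against 47.4% of all probe sets. Its median was -0.12 over the 46 genes and 0.01 over all probe sets.

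**Figure D1:**
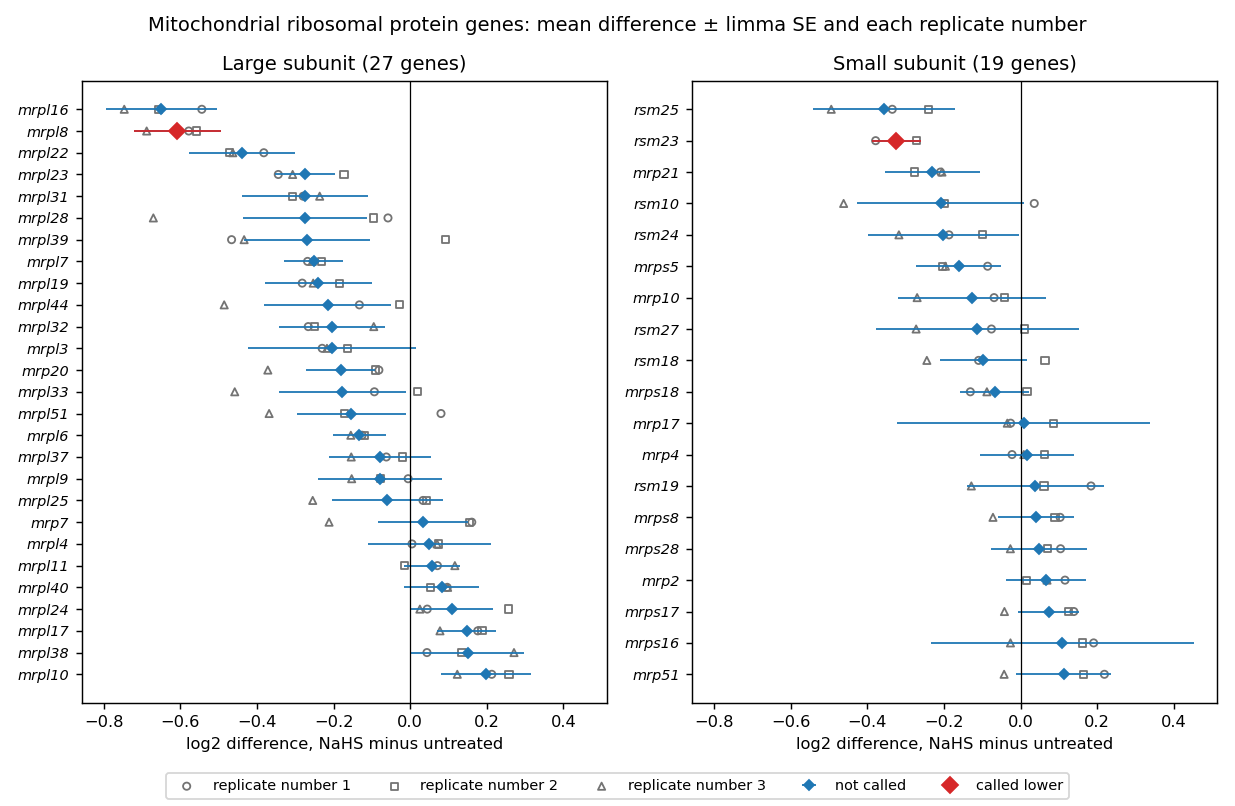
Log2 difference of NaHS minus untreated cells (x axis) for each of the 27 large and 19 small subunit genes (y axis). Diamonds are means with the limma standard error, red where the gene was called lower. Open symbols are the differences within replicate numbers 1, 2 and 3. The means of mrpl16, mrpl8 and mrpl22 lie lowest, and those of 16 of the 46 genes lie within 0.1 of 0.

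In the large subunit, mrpl8 encodes the counterpart of the bacterial protein bL17, which lies near the end of the exit tunnel. Its log2 signal was 9.08, 9.34 and 9.25 in NaHS-treated replicates 1, 2 and 3, and 9.65, 9.90 and 9.93 in the untreated ones. All NaHS arrays were below all untreated arrays. This gave a log2 fold change of -0.61 (standard error 0.11, limma adjusted p = 0.0305, n = 3 arrays per group). The call was kept without untreated replicate 1 (adjusted p = 0.0327). It was lost without NaHS replicate 1, 2 or 3 (adjusted p = 0.0758, 0.077 and 0.101 in limma) and without untreated replicate 2 or 3 (0.139 and 0.135), and the log2 fold change lay between -0.70 and -0.54 in these 6 fits. With no filter on low values it was also lost (adjusted p = 0.0701).

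The largest decrease among the 46 genes was that of mrpl16, which was 1.57-fold lower after NaHS. It encodes the counterpart of uL16, a protein that in bacteria helps to hold the tRNA at the site where amino acids are joined. In NaHS replicates 1, 2 and 3 the log2 signal was 9.28, 9.24 and 9.52, and in untreated replicates 9.83, 9.90 and 10.26. The groups did not overlap, but they varied more than those of mrpl8, with SDs of 0.15 and 0.24 (n = 3 arrays each). Its log2 fold change of -0.65 (standard error 0.15) did not pass the test (limma adjusted p = 0.0525). It passed with the replicate block (adjusted p = 0.00429) and with a mean-variance trend (adjusted p = 0.0343), and in no other setting. These 2 genes were the only ones of the 46 with a difference of more than 1.5-fold in either direction.

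The gene with the next largest decrease, mrpl22, encodes the counterpart of uL22, which lines the exit tunnel. Its log2 signal averaged 10.06 ± 0.16 with NaHS and 10.50 ± 0.21 without (SD, n = 3 arrays each), and the groups did not overlap. The log2 fold change of -0.44 did not pass the test in limma (adjusted p = 0.129) and passed with the replicate block (adjusted p = 0.00522). Untreated replicate 1, at 10.26, lay close to NaHS replicate 3, at 10.19, while the difference within each replicate number was -0.38, -0.47 and -0.46.

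Other genes of the large subunit differed by less. For mrpl23 (uL13 in bacteria) and mrpl31, which has no bacterial counterpart, the log2 fold change was -0.27 for each (limma adjusted p = 0.0991 and 0.416). That of mrpl7, whose bacterial counterpart uL5 contacts the small subunit, was -0.25 (adjusted p = 0.118). All 3 passed with the replicate block (adjusted p = 0.0229 for mrpl23, 0.0131 for mrpl31 and 0.0147 for mrpl7), as did mrpl3, mrpl19 and mrpl32, with log2 fold changes of -0.20, -0.24 and -0.20.

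**Figure D2:**
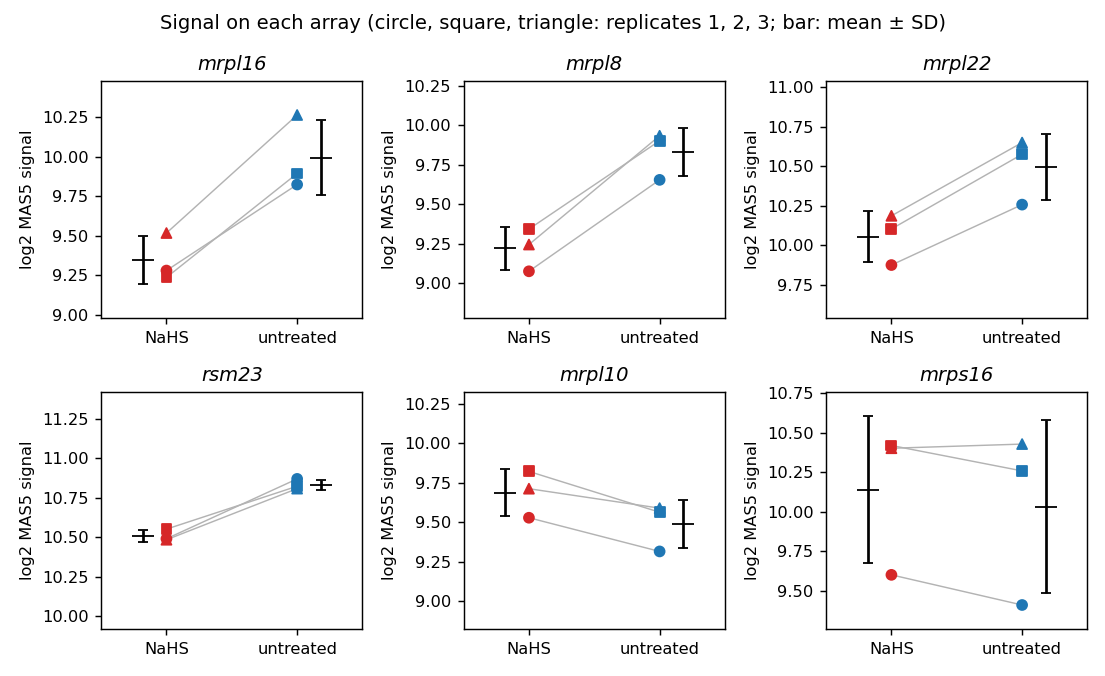
Log2 MAS5 signal (y axis) of 6 genes on each NaHS (left, red) and untreated (right, blue) array. Circles, squares and triangles are replicates 1, 2 and 3, grey lines join the same replicate number, and black bars are means ± SD; in mrpl16, mrpl8, mrpl22 and rsm23 the groups do not overlap, in mrpl10 they do, and in mrps16 both replicate 1 arrays are low.

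At the other end of the large subunit, mrpl10, mrpl38, mrpl17, mrpl24 and mrpl40 had the highest log2 fold changes, and none passed the test. The gene mrpl10 encodes the counterpart of uL15, a protein of the bacterial large subunit. On the NaHS arrays of replicates 1, 2 and 3 its log2 signal was 9.53, 9.82 and 9.71, and on the untreated arrays 9.31, 9.56 and 9.59, so that the groups overlapped. On average it was higher by 0.20 on the log2 scale (standard error 0.12, limma adjusted p = 0.405). In the fit with the replicate block mrpl10 rose (adjusted p = 0.0397), the only one of the 46 genes to do so. For mrpl17, a protein found only in mitochondria, each NaHS array exceeded every untreated one, by 0.15 on average on the log2 scale (limma adjusted p = 0.341). The values were 0.15 for mrpl38, 0.11 for mrpl24 and 0.08 for mrpl40.

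Over the 27 genes of the large subunit, 1 fell (3.70%, against 3.67% of all probe sets) and 0 rose, and the median log2 fold change was -0.18. It was below 0 for 19 genes. In 7 genes all NaHS arrays lay below all untreated arrays (25.9%, where 13.7% of all probe sets did), and in 1 gene all lay above (14.6% of all probe sets did). The 7 genes were mrpl6, mrpl7, mrpl8, mrpl16, mrpl22, mrpl23 and mrp20. The fit with the block gave 9 that fell (33.3%, against 16.4% of all probe sets) and 1 that rose (16.3% of all probe sets did). Without untreated replicate 3, the median was -0.06.

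In the small subunit 1 gene of 19 fell (5.26%, against 3.67% of all probe sets). This was rsm23, which encodes the homologue of the GTP-binding protein mS29, known in mammals as DAP3. For rsm23 the log2 signal was 10.49, 10.55 and 10.48 in NaHS replicates 1, 2 and 3, and 10.87, 10.82 and 10.81 in untreated replicates. The groups did not overlap, and the SDs of 0.04 and 0.03 were small. A log2 fold change of -0.32 followed (standard error 0.06, limma adjusted p = 0.0372). With any 1 of the 6 arrays omitted the call was lost, with adjusted p between 0.0988 (without NaHS replicate 1) and 0.166 (without untreated replicate 2), while the log2 fold change stayed between -0.35 and -0.31.

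The lowest log2 fold change of the small subunit was that of rsm25, which encodes the mitochondria-specific protein mS23. It was -0.36 and did not pass the test in limma (adjusted p = 0.339), and the arrays of replicate 1 were low in both groups. The log2 signal of rsm25 was 8.16, 8.65 and 8.52 in NaHS replicates and 8.49, 8.89 and 9.02 in untreated replicates. It passed with the replicate block (adjusted p = 0.0189), as did mrp21, the homologue of bS21, which differed by -0.23 on the log2 scale (adjusted p = 0.0209). For rsm10 and rsm24 the values were -0.21 and -0.20, and neither passed in limma (adjusted p = 0.698 and 0.676) or with the block (0.197 and 0.0609).

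The genes mrp51, mrps16, mrps17, mrp2 and mrps28 had the highest log2 fold changes of the small subunit, between 0.05 for mrps28 and 0.11 for mrp51, and none passed the test in limma with or without the block. The highest standard error of the 46 genes, 0.34, was that of mrps16, the homologue of the bacterial assembly protein bS16. Its log2 signal was 9.60, 10.42 and 10.40 in NaHS replicates 1, 2 and 3, and 9.41, 10.26 and 10.43 in untreated replicates. Both arrays of replicate 1 were far below the others.

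Over the 19 genes of the small subunit, the median log2 fold change was -0.07, and it was below 0 for 10 genes. All NaHS arrays lay below all untreated arrays in 1 gene (5.26%, against 13.7% of all probe sets), and above in 0 (14.6% of all probe sets). With the replicate block, 3 genes fell (15.8%, against 16.4% of all probe sets) and 0 rose (16.3% of all probe sets did). Without NaHS replicate 1 the median was 0.01. The difference between the subunits was not tested. The gene rsm1, which the symbol rule also found, had a log2 fold change of -0.12 and did not pass (limma adjusted p = 0.764).

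Replicate 1 differed from replicates 2 and 3 in both groups. The replicate 1 array was the lowest of its group for 36 of the 46 genes with NaHS and for 40 without, and in 36 genes, or 78.3%, it was the lowest in both groups. Over all tested probe sets this was so for 37.7%. The median difference of replicate 1 from the mean of replicates 2 and 3 was -0.22 with NaHS and -0.26 without for the 46 genes, and -0.03 and -0.02 for all tested probe sets. In 5 of the 46 genes the order was the opposite, with replicate 1 highest in both groups. Over all tested probe sets this was so for 1634 of 4965. The 5 genes were mrpl7, mrpl11 and mrpl39 of the large and mrp17 and rsm10 of the small subunit. The widest gap was that of mrp17. Its log2 signal was 7.45, 6.83 and 6.50 in NaHS replicates 1, 2 and 3 and 7.48, 6.75 and 6.54 in untreated replicates. The part of the replicate difference in the results was not tested beyond the fit with the block.

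**Figure D3:**
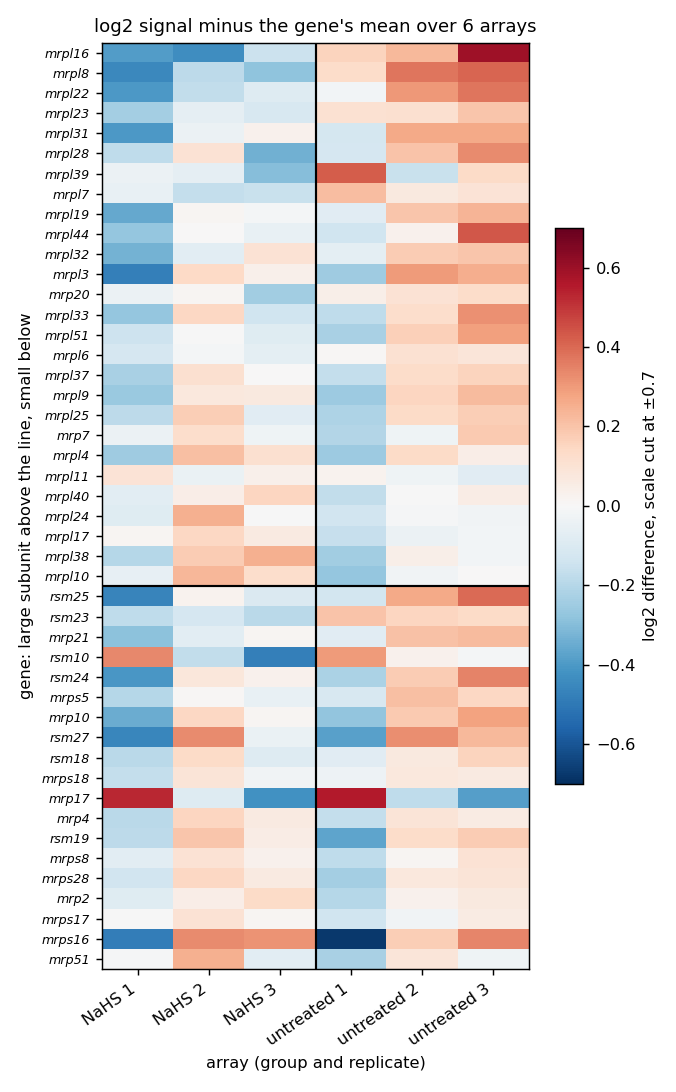
Log2 signal of each gene minus its mean over the 6 arrays (colour, blue below and red above), with the NaHS arrays left and the untreated arrays right; genes of the large subunit stand above the line and those of the small subunit below, each ordered by log2 fold change. Replicate 1 is the lowest of its group in both groups for 36 of the 46 genes, and the highest in both for 5, mrpl7, mrpl11, mrpl39, mrp17 and rsm10.

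Within replicate numbers, the NaHS array was below the untreated one for 28 of the 46 genes in replicate 1, 24 in replicate 2 and 37 in replicate 3. Over all tested probe sets it was below for 47.7%, 47% and 50.9%. For the 46 genes the median difference was -0.07, -0.02 and -0.21. Over all tested probe sets the median difference was 0.01, 0.02 and -0.01. The median was thus lowest in replicate 3. In the large subunit the medians were -0.08, -0.08 and -0.24, and in the small subunit -0.03, 0.02 and -0.13. In 21 of the 46 genes (15 of the large and 6 of the small subunit) the NaHS array was below the untreated one in every replicate number, and in 7 it was above in every one. For all tested probe sets, 30.2% were below in every replicate number and 33.3% above. The gene mrpl28, of a protein found only in mitochondria, is an example with 1 replicate far from the others. Its difference was -0.06, -0.10 and -0.67 in replicates 1, 2 and 3, and its log2 fold change of -0.27 did not pass (limma adjusted p = 0.41).

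The proteins can also be divided by origin, following the names of their homologues in *S. cerevisiae*. Of the 33 genes whose protein has a bacterial counterpart, 17 had a log2 fold change below 0, and the median was -0.07. Of the 13 genes for proteins found only in mitochondria, 12 had one below 0, with a median of -0.20, the exception being mrpl17. One gene of each kind was called lower, mrpl8 (3.03% of its kind) and rsm23 (7.69%), against 3.67% of all probe sets. Within replicate numbers the median differences were -0.08, -0.10 and -0.27 for the mitochondria-specific genes and -0.02, 0.02 and -0.13 for the others. The difference between the 2 kinds was not tested.

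Other proteins of the mitochondrial ribosome are encoded by genes with other symbols, of which 4 were measured. These were img1, nam9, rml2 and bot1. None passed the test in limma, and all 4 had a log2 fold change below 0, from -0.26 for nam9 and img1 to -0.06 for rml2. With the replicate block, img1 and nam9 fell (adjusted p = 0.0144 and 0.0317), where 16.4% of all probe sets fell.

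Of the genes that serve translation in mitochondria, pth1, which encodes a peptidyl-tRNA hydrolase, an enzyme that frees tRNA from stalled chains, fell. In this gene the log2 signal was 8.68, 8.74 and 8.55 in NaHS replicates and 9.14, 9.14 and 9.15 in untreated replicates, so that the groups were far apart. The log2 fold change was -0.49 (standard error 0.07, limma adjusted p = 0.0185). The gene was 1 of 5 measured translation factors, or 20%, against 3.67% of all probe sets called lower. The other 4 did not pass, among them the elongation factor genes tuf1 and tsf1 with log2 fold changes of -0.04 and -0.11. With 1 array omitted, pth1 was called in 1 of 6 fits (highest adjusted p = 0.102).

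The gene mrm2, for an enzyme that methylates the RNA of the large mitochondrial subunit, also fell. Of 4 genes for assembly and membrane insertion it was the only one to fall (25%, against 3.67% of all probe sets). Its log2 signal was 6.45, 6.40 and 6.32 in NaHS replicates and 6.90, 6.87 and 6.83 in untreated replicates, a difference of -0.48 on the log2 scale (standard error 0.07, limma adjusted p = 0.0148). With 1 array omitted it was called in 2 of 6 fits (highest adjusted p = 0.0937). The call was lost under quantile normalization (adjusted p = 0.054) and with a mean-variance trend (adjusted p = 0.104). With the replicate block, mtg1 of the same list also fell (log2 fold change -0.35, adjusted p = 0.0176), where 16.4% of all probe sets fell.

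Of 15 genes for transcription, RNA and translational control in mitochondria, ppr1 rose and none fell. Of all probe sets 3.97% rose and 3.67% fell, and ppr1 alone was 6.67% of its list. The gene encodes a pentatricopeptide repeat protein, a kind that binds mitochondrial RNA, and its log2 signal was 10.41, 10.67 and 10.48 in NaHS replicates and 9.31, 9.68 and 9.67 in untreated replicates. The log2 fold change of ppr1 was 0.96 (standard error 0.13, limma adjusted p = 0.0125), opposite in direction to those of mrpl8, rsm23, pth1 and mrm2, and 3 of the 6 fits with 1 array omitted called it (highest adjusted p = 0.0544). With the replicate block 3 of the 15 rose, which were ppr1, ppr8 and cbp6, and 3 fell, which were ppr2, ppr3 and ppr5. Over all probe sets 16.3% rose and 16.4% fell with the block. In ppr8 every NaHS array exceeded every untreated one, with a log2 fold change of 0.49 (limma adjusted p = 0.0598, and 0.00417 with the block). Of 3 mitochondrial aminoacyl-tRNA synthetase genes, none passed, and the median log2 fold change was -0.32. In all 3 every NaHS array lay below every untreated one, as in 13.7% of all probe sets. The list held 22 names, of which 4 stood for other genes and only these 3 had a probe set. Both mse1 and slm5 fell with the replicate block (adjusted p = 0.027 and 0.0174), where 16.4% of all probe sets fell. They also fell under quantile normalization (adjusted p = 0.0298 and 0.0133), and neither passed in any other setting.

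The respiratory complexes hold the proteins that the mitochondrial ribosome makes, together with subunits from the nucleus. Of 28 nuclear genes for subunits of complexes III, IV and V, 11 fell (39.3%, against 3.67% of all probe sets) and none rose. All 28 had a log2 fold change below 0, against 47.4% of all probe sets, with a median of -0.32. The number that fell was 23 with the replicate block (82.1%, against 16.4% of all probe sets). With 1 array omitted it was 6, 3 and 5 without NaHS replicates 1, 2 and 3, and 7, 2 and 2 without untreated replicates 1, 2 and 3. The largest decreases were those of rip1, for the Rieske iron-sulfur protein of complex III, and of cox13, for a subunit of cytochrome c oxidase. Their log2 fold changes were -0.91 and -0.85 (limma adjusted p = 0.00466 and 0.00572), against -0.65 for mrpl16. In every replicate number all 28 were lower with NaHS, which held for 21 of the 46 mitochondrial ribosomal protein genes and 30.2% of all probe sets. The 119 genes of cytoplasmic ribosomal proteins had a median log2 fold change of 0.00, and 0 were called in limma. At an unadjusted p below 0.05 there were 2, against 1115 of all 4965 probe sets. With the replicate block 3 were called (2.52%), against 32.7% of all probe sets. Many of the cytoplasmic genes are pairs of near-identical copies that a probe set may not tell apart. Within replicate numbers their median difference was -0.07, -0.10 and 0.15. The last was positive, in the replicate number with the lowest median difference of the mitochondrial ribosomal protein genes. The differences between these lists were not tested.

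**Figure D4:**
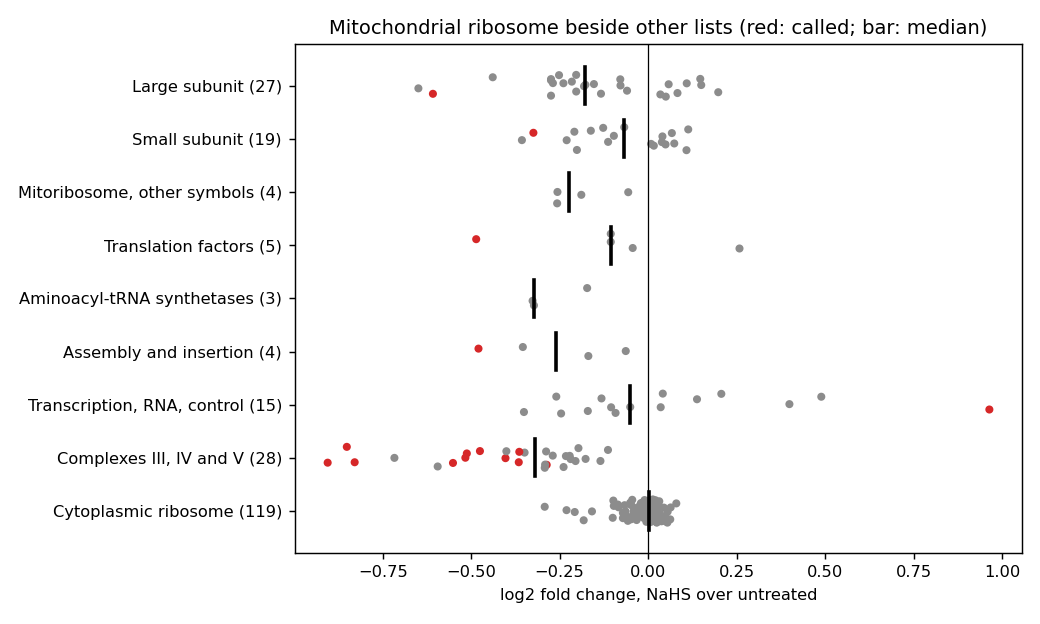
Log2 fold change of NaHS over untreated cells (x axis) for each gene of the large and small subunit and of the other lists (y axis, with the number of genes). Red points were called and black bars are medians, which were -0.18 for the large subunit, -0.07 for the small subunit, -0.32 for complexes III, IV and V and 0.00 for cytoplasmic ribosomal proteins.

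The limma standard error of the 46 genes had a median of 0.13 on the log2 scale, from 0.06 for rsm23 to 0.34 for mrps16. Its median was 0.05 with the replicate block, and the error was lower than without it in all 46 genes. The difference was within 1.2-fold in either direction for 37 genes and within 0.1 on the log2 scale for 16. That 44 genes did not pass the test does not show that they were unchanged.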

How the data were processed

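Total RNA of 6 cultures was hybridised to 1 Affymetrix Yeast Genome array each. As deposited, each probe set has a log2 signal, computed with MAS5 for the authors by an array service. Its version, and the target to which it scaled each array, are not stated in these sources. Blank cells, 23.6% of all and found in 8 tested probe sets, were set to 0. The 4965 tested probe sets were the 2937 paired with *S. pombe* genes in the platform's annotation and 2028 unlisted ones whose mean on the log2 scale exceeded 3.67, a limit below which 99% of the *S. cerevisiae* probe sets lay. The 213 control probe sets were left out. Genes were named by that annotation, and RefSeq calls mrpl11 and mrps5 by the symbols mrp11 and mrp5.

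Differences between NaHS and untreated arrays were tested in limma 3.58.1 under R 4.3.3, two-sided, with 4 residual and 2.016 prior degrees of freedom. P-values were adjusted over all tested probe sets by Benjamini-Hochberg, and genes were called below 0.05. The methods of the study name SAM, which is not installed here. The fit without the block was run on simulated data with independent noise on each array, which hold no replicate effect. The fit with the block was not run on simulated data. The planned search for promoter motifs was not run, because no promoter sequences were used here. Python 3.11.15 was used for tables and figures, with pandas 2.3.3 and Matplotlib 3.10.9.

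Deviations from the group means correlated at 0.867, 0.578 and 0.598 between arrays of the same replicate number, so the numbers, taken from the sample labels, were read as pairing the cultures. Across numbers, replicates 2 and 3 correlated at 0.637 and 0.592, so that the check separates mainly replicate 1. The main test has no block.

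Genes and lists were chosen with earlier results of these data known. Named genes were all called genes, the 5 lowest and 5 highest log2 fold changes of each subunit, mrpl8 and mrpl16, and called genes of the other lists. The genes mrpl3, mrpl6, mrpl7, mrpl11, mrpl19, mrpl28, mrpl32, mrpl39, mrp17, mrp20, img1, nam9, rml2, bot1, tuf1, tsf1, mtg1, ppr2, ppr3, ppr5, ppr8, cbp6, mse1 and slm5 were chosen after their values were seen. From the fixed lists 7 symbols were left out that stand for other genes in fission yeast. The division by origin was not among the fixed lists. Alternatives were another normalization, the replicate block, other filters, missing blanks, a variance trend and 1 array left out.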

Additional observations from a re-analysis of the deposited data

How the results depend on the processing

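With the replicate block, 12 of the 46 genes fell and 1 rose (9 and 1 of the large subunit, 3 of the small subunit fell), and over all probe sets 815 fell and 807 rose, against 182 and 197 without it. With no filter on low values 1 of the 46 and 0 of the large subunit fell, and with a mean-variance trend 2 of the large subunit fell. With only probe sets paired with *S. pombe* genes, which are fewer, 77 fell and 92 rose over all. Leaving out 1 array gave 0 to 1 fallen of the 46 genes, 0 to 1 of the large and 0 of the small subunit, 24 to 97 fallen and 67 to 134 risen over all probe sets, and medians of -0.19 to -0.02 for the 46 genes, -0.22 to -0.062 for the large subunit (-0.062 without untreated replicate 3) and -0.14 to 0.014 for the small subunit (0.014 without NaHS replicate 1). These fits have fewer arrays, no block and groups of unequal size. The cause of the differences between the settings was not tested. Quantile normalization, equal medians and missing blanks kept 2 fallen of the 46 genes. The mean of several probe sets was not run, since each gene had 1. All 46 genes had a mean signal above the background limit.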
